A study of Homo sapiens with 3 samples.

Results

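The members described here are 40 mature miRNAs of the imprinted DLK1-MEG3 cluster on chromosome 14q32, of 2588 human miRNAs listed in each count file. They were chosen by name, as products of the cluster, with earlier results of these data known. Small-RNA sequencing measured them in cells of the established human melanoma line SK-MEL-2, grown in RPMI-1640 with serum. The 3 libraries were 1 of untreated cells (control), 1 of cells exposed to a nonthermal plasma jet for 3 min, and 1 of cells exposed for 5 min. All are labelled Day 2, since the treated cells were kept for a further pair of days after exposure. Such a jet delivers weakly ionised gas at a temperature cells tolerate, and the series asked how it acts on melanoma cell growth.

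Each group being 1 library, no replicates existed and no significance test was run. Each ratio therefore compares libraries, not conditions, and the intervals given are exact 95% counting intervals (Clopper-Pearson, from the split of the reads between a pair of libraries). Both plasma libraries were set against the same control library, so their ratios to it are not independent.

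Imprinted genes are expressed from the allele of only 1 parent. At 14q32 the paternal allele carries the active protein-coding genes DLK1, RTL1 and DIO3. The maternal allele carries the active noncoding RNAs MEG3, MEG8 and MEG9, small nucleolar RNAs and one of the largest miRNA clusters in the genome. Its miRNAs are abundant in the embryo, placenta and brain, and low levels have been reported in many tumours, melanoma among them. The hairpins lie on 1 strand in 2 groups. A first group lies near MEG3 and RTL1, where several hairpins are antisense to RTL1. A longer second group begins at MIR379. All 40 members matched an entry of the RefSeq miRNA table (GRCh38.p14). They came from 36 hairpins spread over 197742 bases, and 26 were 3p arms, 13 were 5p arms and miR-543 carries no arm suffix.

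Of the members, 4 had at least 10 reads in some library. Their mature sequences are shown because nearly all reads of the cluster rest on them; capitals mark the seed, bases 2 to 8, which pairs with target mRNAs.
hsa-miR-539-3p: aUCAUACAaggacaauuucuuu
hsa-miR-337-3p: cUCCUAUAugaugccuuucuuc
hsa-miR-136-5p: aCUCCAUUuguuuugaugaugga
hsa-miR-381-3p: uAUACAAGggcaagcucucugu
On GRCh38.p14, plus strand, miR-539-3p lies at chr14:101047369-101047390 and miR-381-3p at chr14:101045968-101045989, both in introns of the noncoding gene MIR381HG (GENCODE 29). miR-337-3p lies at chr14:100874553-100874574, in an intron of the long noncoding gene AL117190.1. miR-136-5p lies at chr14:100884716-100884738, in an intron of the same gene and opposite an exon of RTL1. A search of 206694 annotated transcripts found the full sequence of each of these 4 miRNAs in its own hairpin on the same strand; on the opposite strand the full sequence of miR-136-5p was found in RTL1, and no other match of full length was found. Reads of miR-136-5p and of RTL1 cannot be told apart if strand was ignored in counting, which is not given in the sources used here.

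The seed of miR-539-3p is shared within the region with miR-485-3p, also a member, and no miRNA elsewhere in the RefSeq table carries it. Its first 8 bases (AUCAUACA) recur shifted by 1 base in miR-487a-3p and miR-154-3p, which are other arms of the region, and its bases 4 to 11 (AUACAAGG) recur at position 2 of miR-381-3p and of miR-300. Each of these 8-base strings occurred in 3 of 2370 mature miRNAs of the table, all of them from this region. The relatives that carry the first string, in capitals, were as follows.
miR-539-3p: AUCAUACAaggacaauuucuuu
miR-487a-3p: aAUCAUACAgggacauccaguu
miR-154-3p: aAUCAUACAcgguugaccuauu
miR-485-3p had 0 reads in control cells, 1 after 3 min and 1 after 5 min, and miR-487a-3p, miR-154-3p and miR-300 had no read in the 3 libraries. miR-381-3p, which carries the second string, had 9, 5 and 22 reads.

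The control library held 1045482 reads, the 3 min library 966943 and the 5 min library 615645. Levels are given as counts per 1000000 reads (CPM) after scaling by the trimmed mean of M-values (TMM, edgeR), so that 1 read was worth 0.956, 1.04 and 1.61 CPM in that order. An entry with 0 reads can stand for a level of up to 3 reads, that is 2.87, 3.13 and 4.83 CPM. Of the miRNAs listed beforehand for pigment cells, miR-204-5p (2608, 2535 and 1257 reads), miR-211-5p (128, 97 and 65) and miR-146a-5p (1319, 1442 and 1139) had reads. The others on that list, miR-506-3p, miR-508-3p, miR-509-3p and miR-514a-3p, were at 0 in the 3 libraries. Lists for other cell types gave summed reads, in the same order, of 4364, 5016 and 3619 for fibroblasts, 18698, 16117 and 11874 for neural cells, 14, 18 and 10 for blood, 15, 17 and 28 for muscle, and 16, 29 and 44 for epithelial cells. After 5 min the scaled ratio to control was 0.812 for miR-204-5p (0.759–0.869), 0.856 for miR-211-5p (0.625–1.16) and 1.46 for miR-146a-5p (1.34–1.58). Endothelial miR-126-3p had 313, 316 and 221 reads, and liver miR-122-5p 114, 117 and 76. Most of the neural reads were miR-9-5p (16885, 14199 and 11140). Of the other neural entries, miR-128-3p had 1444, 1540 and 564 reads and miR-129-5p 257, 232 and 100. miR-9-3p had 112, 146 and 70, and miR-124-3p had none.

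The cluster as a whole was nearly silent in untreated SK-MEL-2 cells. The 40 members summed to 80 of the control reads, a share of 0.00765%, to 279 reads after 3 min (0.0289%) and to 238 after 5 min (0.0387%). After scaling, the sum stood at 76.5 CPM in control cells, 291 CPM after 3 min and 383 CPM after 5 min. It was 3.81-fold higher than control after 3 min (2.96–4.94) and 5.01-fold higher after 5 min (3.88–6.54), and 1.32-fold higher after 5 min than after 3 min (1.10–1.57). Most of the gap between each plasma library and the control came from 1 miRNA, miR-539-3p. miR-539-3p made up 30.0% of the cluster's reads in control cells (20.3–41.3), 67.7% after 3 min (61.9–73.2) and 63.4% after 5 min (56.98–69.6). Without it, the other 39 members summed to 56, 90 and 87 reads, which was 1.75-fold above control after 3 min (1.24–2.49) and 2.62-fold after 5 min (1.85–3.73).

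**Figure D1:**
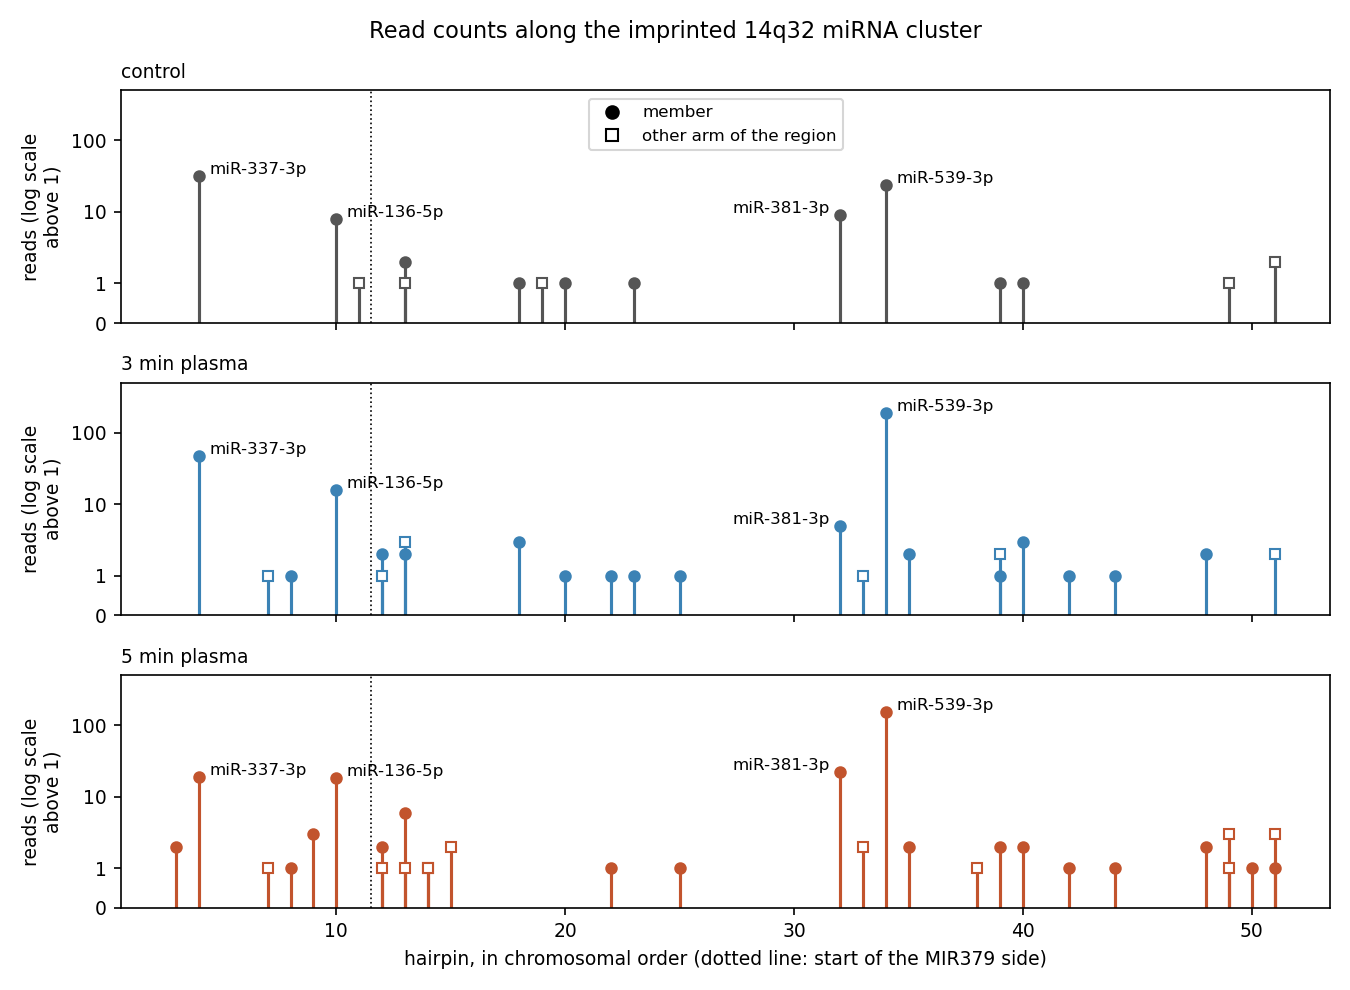
Reads of each mature miRNA (vertical axis, log scale above 1 read) against the order of its hairpin on chromosome 14 (horizontal axis), with 1 panel per library; filled circles are members, open squares other arms of the region, and entries with 0 reads are not drawn. miR-539-3p had 24, 189 and 151 reads, and outside the 4 named members no arm had more than 6.

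miR-539-3p had 24 reads in control cells, 189 after 3 min and 151 after 5 min. The corresponding levels were 22.9 CPM (14.7–34.1), 197 CPM (170–227) and 243 CPM (206–285), so both plasma libraries lay above the control with no overlap of counting intervals. The ratio to control was 8.59 after 3 min (5.60–13.7) and 10.6 after 5 min (6.86–17.1), while the plasma libraries differed by 1.23-fold with an interval of 0.989 to 1.54 that includes 1. Ranked by reads among the 2588 listed miRNAs, it moved from 225th in the control to 110th after 3 min and 109th after 5 min. It remained a minor species: it took 0.00230% of all reads in control cells, 0.0195% after 3 min and 0.0245% after 5 min.

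A mean of at least 20 reads over the 3 libraries was required for a miRNA to enter counts past a fold, which 231 of the listed miRNAs met (8.93%). Only 2 of the 40 members met it (5.00%), miR-539-3p and miR-337-3p. Of the 231, 2.16% were at least 2-fold higher after 3 min and 9.52% after 5 min, and miR-539-3p was the 1 member among them at each exposure. At least 2-fold lower were 0.866% of the 231 after 3 min and 3.46% after 5 min, and neither member was among them. Between the plasma libraries, 6.49% were at least 2-fold higher after 5 min and 0.866% at least 2-fold lower, with 0 members in either direction. At 1.5-fold, 6.93% of the 231 were higher and 5.19% lower after 3 min, where both members were higher. After 5 min these shares were 17.3% and 11.7%, with miR-539-3p higher. From 3 to 5 min they were 13% and 8.66%, with miR-337-3p lower. The ratio of miR-539-3p was the second highest of the 231 after 3 min and the fifth highest after 5 min. The median log2 ratio of the 2 members was 1.89 after 3 min, 1.70 after 5 min and -0.19 between the plasma libraries, against 0.05, 0.05 and 0.02 over all 231.

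**Figure D2:**
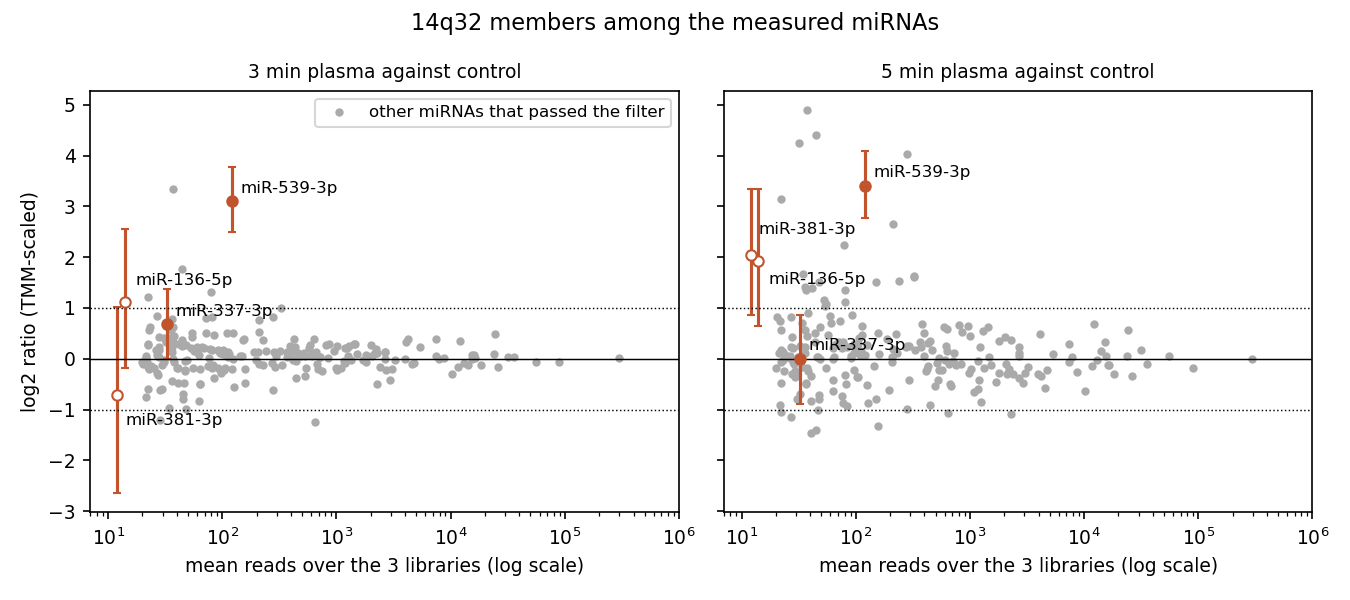
The log2 ratio to control (vertical axis, TMM-scaled, 1 panel per exposure) against the mean number of reads over the 3 libraries (horizontal axis, log scale); grey points are other miRNAs that passed the filter, orange points are members with 95% counting intervals, open where the mean was under 20 reads, and dotted lines mark 2-fold. miR-539-3p sits at 3.10 after 3 min and 3.41 after 5 min, and miR-337-3p at 0.68 and 0.00.

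MIR539, which gives rise to miR-539-3p, is shown whole on GRCh38.p14 (chr14:101047321-101047398, plus strand), with its 5p and 3p arms in capitals, because only 1 of these arms was seen.
MIR539: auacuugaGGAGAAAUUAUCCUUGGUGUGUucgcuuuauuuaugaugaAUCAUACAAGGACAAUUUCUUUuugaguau
miR-539-5p, the other arm, had 0 reads in each library. Set against the limit of 3 reads per library, the observed reads of the 3p arm were at least 8-fold higher than those of the 5p arm in the control, 63-fold after 3 min and 50.3-fold after 5 min; the counting error of the 3p reads themselves is not included. Adapter ligation favours some RNA ends over others, so these are ratios of reads and not of molecules.

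The hairpins beside MIR539 gave few reads. MIR487B lies 866 bases before it and MIR381 1401 bases before, start to start, while MIR889 follows at 580 bases. The 11 listed arms of the 3 hairpins on each side (MIR1185-2, MIR381, MIR487B, MIR889, MIR544A and MIR655) summed to 9 reads in control cells, 8 after 3 min and 26 after 5 min. Most of these were miR-381-3p. miR-889-3p had 0, 2 and 2 reads and miR-487b-5p 0, 1 and 2, and the other 8 arms had none in the 3 libraries. After 3 min the neighbours stood at 0.970 of control (0.326–2.83), where miR-539-3p was 8.59-fold higher; the ratio of these ratios, which needs no scaling, was 8.72 (2.71–28.8, exact conditional interval). After 5 min the neighbours were 4.87-fold above control (2.21–11.8), and the ratio of ratios was 2.17 with an interval of 0.796 to 5.53 that includes 1. The interval of the ratio of ratios thus excluded 1 after 3 min and included it after 5 min. Of the 26 neighbour reads after 5 min, 22 were miR-381-3p. miR-539-3p was singled out with earlier results of these data known, so the ratios of ratios describe these libraries and are not tests. With the sum of all other members in place of the neighbours, the ratio of ratios was 4.88 after 3 min (2.77–8.79) and 4.03 after 5 min (2.28–7.31).

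miR-337-3p, from the first group of hairpins, was the most abundant member in the control with 32 reads, and had 47 after 3 min and 19 after 5 min. Its levels of 30.6, 49.0 and 30.6 CPM followed another course than those of miR-539-3p. It was 1.60-fold above control after 3 min, with an interval of 1.001 to 2.60, and level with control after 5 min (0.536–1.82). From 3 to 5 min its ratio was 0.624 (0.346–1.08). Relative to miR-337-3p, miR-539-3p was 5.32-fold higher after 3 min than in the control (2.76–10.4) and 10.4-fold after 5 min (4.90–23). Its partner miR-337-5p had no read in the 3 libraries.

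miR-136-5p, whose hairpin is antisense to RTL1, had 8, 16 and 18 reads, that is 7.65, 16.7 and 29 CPM. Its mean was under the filter. After 3 min it was 2.18-fold above control with an interval of 0.881 to 5.89, and after 5 min 3.79-fold (1.57–10.1). miR-381-3p, also under the filter, had 9 reads in control cells, 5 after 3 min and 22 after 5 min. It stood at 0.606 of control after 3 min (0.160–2.01) and was 4.12-fold higher after 5 min (1.82–10.2), and 6.79-fold higher after 5 min than after 3 min (2.51–22.96). miR-381-3p, in the same host gene as miR-539-3p, thus had its fewest reads in the 3 min library, where miR-539-3p stood 8.59-fold above control. The partner arms miR-136-3p and miR-381-5p had 0 reads throughout.

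**Figure D3:**
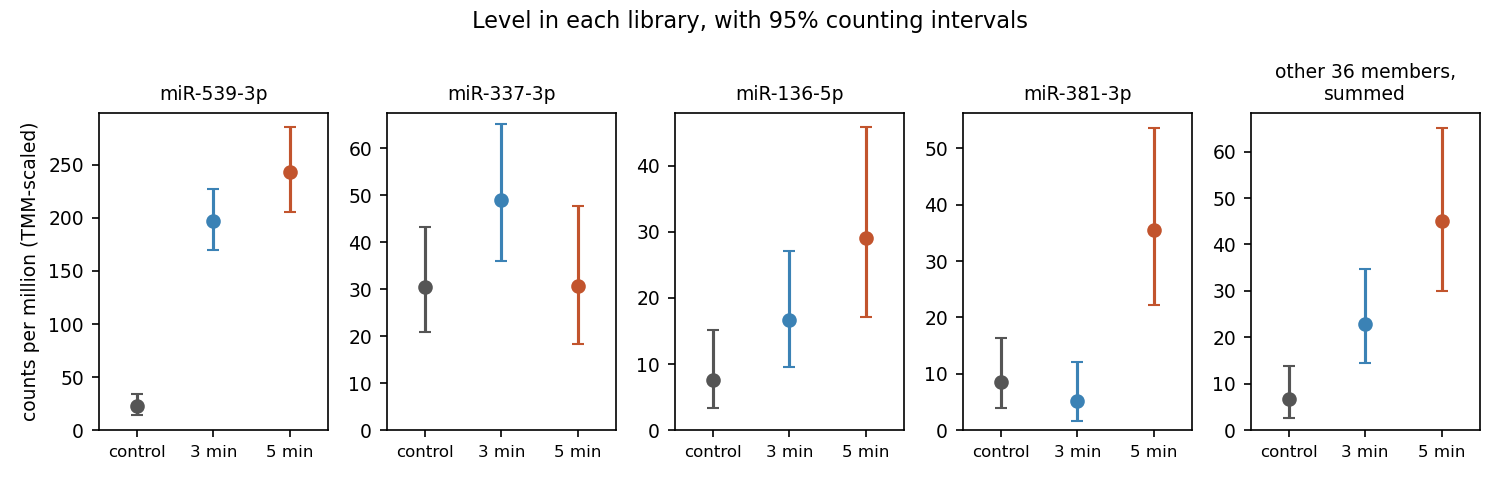
Level of miR-539-3p, miR-337-3p, miR-136-5p, miR-381-3p and the sum of the other 36 members (vertical axes, TMM-scaled CPM, each panel with its own scale) in the 3 libraries, with 95% Poisson counting intervals. miR-539-3p is high in both plasma libraries, miR-381-3p only in the 5 min library (35.4 CPM against 8.60 and 5.22), and miR-337-3p is at 30.6 CPM in the control and after 5 min.

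The other 36 members had at most 6 reads in a library. Of these, 18 had no read in the 3 libraries: miR-136-3p, miR-323a-3p, miR-329-3p, miR-337-5p, miR-369-5p, miR-370-3p, miR-376c-3p, miR-377-3p, miR-431-5p, miR-433-3p, miR-485-5p, miR-487b-3p, miR-493-3p, miR-539-5p, miR-541-3p, miR-654-3p, miR-655-3p and miR-656-3p. A count of 0 was taken to allow up to 3 reads per library, so their absence was not shown. The remaining 18 were seen in at least 1 library. miR-411-5p had the most reads, with 2, 2 and 6. miR-134-5p, known for its part in dendritic spine growth of neurons, had 1, 3 and 2, and miR-758-3p had 1, 3 and 0. miR-376a-3p, whose seed is a known target of adenosine-to-inosine editing, had 0, 1 and 1, and miR-127-3p, which lies antisense to RTL1, likewise 0, 1 and 1.

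Summed, these 36 members had 7 reads in control cells, 22 after 3 min and 28 after 5 min, although the 5 min library was the shallowest. The scaled sum was 3.43-fold above control after 3 min (1.42–9.51) and 6.74-fold after 5 min (2.88–18.3). Scarce miRNAs elsewhere also stood higher after 5 min: 614 listed miRNAs outside the region with a read somewhere but under 10 in every library summed to 700, 698 and 768 reads, 1.09-fold above control after 3 min (0.978–1.21) and 1.85-fold after 5 min (1.67–2.05). The intervals of the scarce members lay above those of the scarce miRNAs elsewhere at both exposures. That difference itself was not tested, and the comparison was chosen after the values were seen. Fibroblast markers also summed higher than control (1.25-fold after 3 min and 1.40-fold after 5 min). So did epithelial markers (1.98-fold and 4.63-fold) and muscle markers (1.24-fold and 3.14-fold). Each sum rested on few entries. miR-199a-3p gave most fibroblast reads (4098, 4729 and 3392), while miR-214-3p (1, 1 and 0) and miR-145-5p (1, 2 and 0) were scarce. The epithelial sum was mostly miR-200b-3p (6, 13 and 20) and miR-200c-3p (6, 8 and 17). miR-205-5p stayed at 0 and miR-141-3p at 1, 0 and 1. Of the muscle markers, miR-1-3p had 0, 3 and 15 reads, miR-499a-5p 14, 14 and 13, miR-133a-3p 1, 0 and 0 and miR-206 none. The part of these markers in the result was not tested.

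The number of members seen went the same way. With at least 1 read there were 10 of 40 in control cells, 18 after 3 min and 19 after 5 min, against 639, 663 and 708 of all 2588 listed miRNAs. Thinned to the depth of the 5 min library, 7.77 members would be expected in the control (19.4%) and 14.5 after 3 min (36.2%), beside the 19 after 5 min (47.5%). Over all listed miRNAs the thinned shares were 21.3%, 22.5% and 27.4%. Among the 18 scarce members seen at all, 6 had a read in control cells (33.3%), 14 after 3 min (77.8%) and 15 after 5 min (83.3%); among the 614 scarce miRNAs elsewhere these shares were 50.98%, 52.9% and 59.3%. Thinned in the same way, they were 21%, 58.2% and 83.3% for the scarce members and 37.3%, 40.7% and 59.3% for the scarce miRNAs elsewhere. A read in a plasma library and none in the control was found for 12 of the 18 scarce members (66.7%) and for 301 of the 614 scarce miRNAs elsewhere (49.0%). The reverse was found for 0 of the members and for 101 of those elsewhere (16.4%). Both scarce sets were limited to miRNAs with a read in some library, so their shares depend on that choice. A read in either plasma library was set against the control library alone, which gave plasma more chances of a read. The forward and reverse counts therefore cannot be weighed against each other within a set. Differences in these shares between the sets were not tested.

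By position, the 11 members of the first group summed to 40, 64 and 43 reads, 1.75-fold above control after 3 min (1.16–2.66) and 1.81-fold after 5 min (1.15–2.86). The 28 members from MIR379 on, without miR-539-3p, summed to 16, 26 and 44 reads, 1.77-fold after 3 min (0.916–3.54) and 4.63-fold after 5 min (2.56–8.80). The intervals of the 2 groups overlapped at each exposure. Single members weighed heavily: miR-337-3p gave 32, 47 and 19 reads of the first sum, and miR-381-3p 9, 5 and 22 of the second. By arm, 3p members without miR-539-3p summed to 44, 64 and 50 reads and 5p members to 12, 25 and 36. After 3 min these sums were 1.59-fold (1.065–2.39) and 2.27-fold (1.10–4.97) above control. After 5 min they were 1.92-fold (1.25–2.94) and 5.05-fold (2.57–10.7) above it. The intervals of the 2 arms overlapped at each exposure, and miR-136-5p gave 8, 16 and 18 of the 5p reads.

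The region holds 53 further listed arms that are not members, and these were fainter still. Of them 39 had no read, none passed the filter, and the highest count was 3. They summed to 6, 10 and 17 reads, 1.82-fold above control after 3 min (0.599–6.09) and 4.77-fold after 5 min (1.80–14.8). miR-410-5p had the most, with 2, 2 and 3 reads, followed by miR-411-3p with 1, 3 and 1, miR-412-5p with 1, 0 and 3, and miR-487b-5p with 0, 1 and 2. The other arms lay on the same side of control as the members after 5 min, on few reads. So did the 614 scarce miRNAs elsewhere, at 1.85-fold (1.67–2.05), and the interval of the other arms overlapped theirs.

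miRNAs of 14q32 that lie outside the imprinted domain, and imprinted miRNAs of other chromosomes, were set beside the cluster. The 6 nonimprinted 14q32 miRNAs, among them miR-342-3p from an intron of EVL and miR-345-3p, summed to 47, 50 and 37 reads, with ratios to control of 1.16 (0.764–1.77) and 1.33 (0.838–2.09). The 23 other imprinted miRNAs summed to 747, 728 and 437 reads, with ratios of 1.06 (0.959–1.18) and 0.986 (0.874–1.11). That list rested on miR-335-3p (651, 620 and 332 reads) and miR-335-5p (90, 92 and 97), both from an intron of MEST. These arms parted after 5 min, when miR-335-5p was 1.82-fold above control (1.35–2.45) and miR-335-3p stood at 0.859 of control (0.751–0.982). Neither list's sum had an interval that excluded 1 at either exposure. The sum of the 39 members without miR-539-3p had one that did at both (1.24–2.49 and 1.85–3.73). At each exposure these overlapped the intervals of the nonimprinted list and lay above those of the other imprinted list. Low-count miRNAs in general also stood higher after 5 min. The 614 scarce miRNAs elsewhere were at 1.09 of control after 3 min (0.978–1.21) and 1.85 after 5 min (1.67–2.05). The interval of the 39 members lay above theirs after 3 min and overlapped it after 5 min. The differences themselves were not tested.

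**Figure D4:**
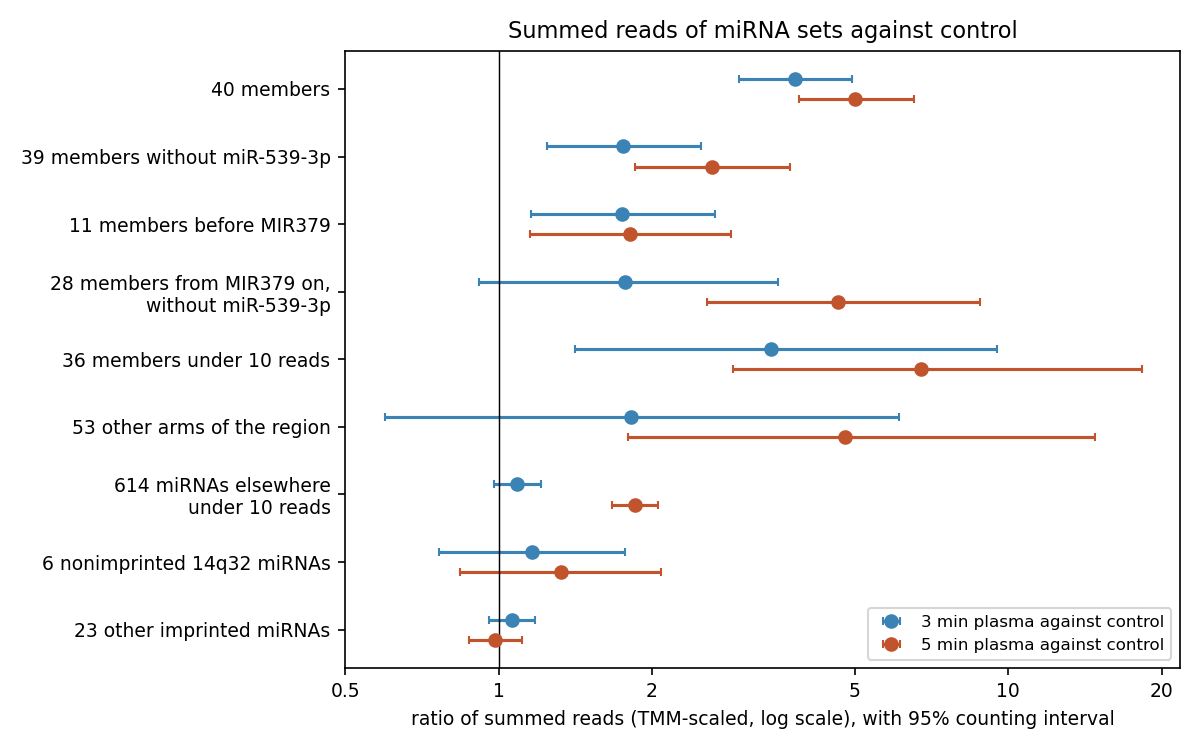
Ratio of summed reads to control (horizontal axis, TMM-scaled, log scale) for sets of miRNAs (rows), with 95% counting intervals, after 3 min (blue) and 5 min (orange) of plasma. The 40 members sit at 3.81 and 5.01, the 36 scarce members at 3.43 and 6.74, and the scarce miRNAs elsewhere at 1.09 and 1.85.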

How the data were processed

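The deposited values are read counts per mature miRNA, 1 file per library. The authors' tools were Bowtie2, bedtools and edgeR, per the submitters' processing notes; versions, genome build, miRNA annotation, trimming, strand and the handling of multiply matching reads: not given in the sources used here. Libraries were made from Trizol-extracted RNA with a NEBNext small-RNA kit, per the labels' protocols, without molecular identifiers. Intervals cover counting error only.

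Counts were scaled by TMM (edgeR 4.0.16, R 4.3.3) over the 231 miRNAs whose mean reached 20 reads, giving factors of 1.000, 0.991 and 1.008 for control, 3 min and 5 min. Other code used Python 3.11.15 with scipy 1.17.1, pandas 2.3.3, numpy 2.4.6 and matplotlib 3.10.9. The ratio step was tested on simulated data. Named members were those past the filter, those with 10 or more reads in a library, and arms near MIR539; scarce members named individually were chosen after their values were seen. Members and lists were chosen with earlier results of these data known. Positions and sequences were matched by miRNA name to RefSeq (GRCh38.p14); miR-668-3p had no entry. Alternatives were other scalings (library total, TMM over all miRNAs or per pair, DESeq2 1.42.0 size factors), filters, folds and sets of members.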

Additional observations from a re-analysis of the deposited data

How the results depend on the processing

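Directions of the cluster sum, of the sum without miR-539-3p and of miR-539-3p were the same under the 5 other scalings. miR-539-3p ranged from 8.17 to 8.59-fold after 3 min and 9.17 to 10.7-fold after 5 min. Its interval between the plasma libraries included 1 except under the library total (1.26, 1.01 to 1.56). Leaving out the most abundant member, miR-539-3p, lowered the cluster sum to 1.75-fold after 3 min and 2.62-fold after 5 min.

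The filter moved what rested on 2 members. With a mean of at least 10 reads there were 4, with median log2 ratios of 0.90 after 3 min and 0.55 between the plasma libraries, and 2 members at least 2-fold higher after 3 min, 3 after 5 min and 1 from 3 to 5 min, where 4.50%, 15.2% and 12.1% of the 289 miRNAs with that mean were. With a mean of at least 50, miR-539-3p alone was left, at 3.10, 3.41 and 0.30. With no filter, 12 members were at least 2-fold higher after 3 min and 18 after 5 min, where 3 were lower; from 3 to 5 min 7 were higher and 3 lower, with a median of 0.63. Of all miRNAs with a ratio, 27.8% were then higher after 3 min, 39.3% higher and 20.7% lower after 5 min, and 36.3% higher and 20.8% lower from 3 to 5 min. The control had 0 reads for 8 of the 18 members with a ratio after 3 min and 12 of 22 after 5 min. After 5 min the unfiltered median had no finite value, since most ratios were against 0 reads. At 1.5-fold, 2 members were higher after 3 min and 1 was lower from 3 to 5 min.

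The planned ratio of the 2 arms of MIR539 between libraries had no value, because the 5p arm was at 0. No paired analysis was possible because each group had 1 library. At this depth, 1 read more or less changes the ratio of most members; more depth would not supply the missing replicates.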

Other observations

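Of the scarce members, 8 had no read in the control and a read in both plasma libraries: miR-127-3p, miR-154-5p, miR-376a-3p, miR-379-5p, miR-409-3p, miR-485-3p, miR-543 and miR-889-3p. In all 8 the count was the same in both plasma libraries, 1 read in each for 5 of them and 2 in each for the others, although the libraries differ in depth. Scarce miRNAs elsewhere with reads in both plasma libraries and none in the control had equal counts in 26 of 49 cases (53.1%), and the other arms of the region in 2 of 3. The pattern was noticed after the values were seen, and its cause was not tested.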
